A study of Mus musculus with 24 samples.

Results

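The melanocyte pigment genes described here are 10 genes, Tyr, Tyrp1, Dct, Pmel, Mlana, Slc45a2, Oca2, Slc24a5, Mc1r and Mitf. They were picked by symbol from the 51912 genes of the count table, through the Ensembl identifiers of its rows, and all 10 were among the 17287 genes with enough counts to test. RNA came from whole ears of C57BL/6 mice and was sequenced from polyA-selected libraries. The Card14 E138A knock-in mice (E138A) switch on a mutant Card14 at its own locus when tamoxifen activates the recombinase CreERT2. Keratinocytes use the scaffold protein CARD14 to signal to NF-κB, and E138A is a psoriasis-associated change known to keep that pathway active without a stimulus. The 4 groups were E138A at 1 month, wild type (WT) at 1 month, E138A at day 5 and WT at day 5, with 6 libraries in each. All mice of both genotypes were injected with tamoxifen on consecutive days, and times were counted from the first injection. The promoter that drives CreERT2, whether WT mice carried it, and the age and sex of the mice are not given in the sources used here.

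Melanocytes make melanin inside melanosomes, organelles that start as endosomes and are then filled with pigment. Tyrosinase starts the synthesis from tyrosine, and the related enzymes TYRP1 and DCT act on later intermediates to give black or brown eumelanin. The fibrils on which melanin is laid down are made of PMEL, and ion and solute transporters set the conditions inside the organelle. MITF is the transcription factor that switches on most of these genes in the melanocyte, and MC1R, the receptor for melanocyte-stimulating hormone, acts on it through cyclic AMP. In mouse ear skin pigment cells lie in hair follicles and also outside them. Melanocytes are known to be a small minority of skin cells.

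The promoters of the pigment genes are shown because 9 of the 10 genes moved together in the comparisons below. The sequences are RefSeq's, build GRCm38.p6, written 5′ to 3′ along the gene and covering 250 bases before to 50 bases after its start. Of the 10 genes 7 had an entry, and Pmel, Mlana and Slc45a2 had none. Capitals mark TCATGTG, the core of the M-box to which MITF is known to bind, read on either strand (CACATGA is the same motif on the opposite strand). The first 3 sequences are the whole windows of the enzyme genes, Tyr at chr7:87493463-87493762 on the minus strand, Tyrp1 at chr4:80833963-80834262 on the plus strand and Dct at chr14:118052197-118052496 on the minus strand.
Tyr: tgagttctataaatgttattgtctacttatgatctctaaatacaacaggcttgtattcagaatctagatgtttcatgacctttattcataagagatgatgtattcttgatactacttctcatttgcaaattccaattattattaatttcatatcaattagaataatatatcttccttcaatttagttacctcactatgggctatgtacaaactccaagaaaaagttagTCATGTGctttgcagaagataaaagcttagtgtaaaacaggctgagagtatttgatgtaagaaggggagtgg
Tyrp1: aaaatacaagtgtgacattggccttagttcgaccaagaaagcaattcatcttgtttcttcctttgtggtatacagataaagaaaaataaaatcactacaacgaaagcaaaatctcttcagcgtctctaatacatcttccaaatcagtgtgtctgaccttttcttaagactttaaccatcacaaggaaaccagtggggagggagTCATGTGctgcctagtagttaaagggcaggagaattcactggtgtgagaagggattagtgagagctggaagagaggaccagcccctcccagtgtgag
Dct: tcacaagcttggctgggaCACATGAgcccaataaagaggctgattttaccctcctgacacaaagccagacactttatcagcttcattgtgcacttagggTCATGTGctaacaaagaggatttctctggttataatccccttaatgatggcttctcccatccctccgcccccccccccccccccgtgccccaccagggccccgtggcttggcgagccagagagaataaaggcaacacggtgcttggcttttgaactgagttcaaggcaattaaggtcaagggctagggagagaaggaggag

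The motif began 22 bases before the start of Tyr and 47 bases before that of Tyrp1, and Dct held it at 151 and 232 bases. Slc24a5 and Mc1r held it at 13 and 52 bases before their starts. The M-box core was thus in 5 of the 7 genes and in 5 of their 9 windows, against 3.77% of 32851 promoters of the same length. The shorter E-box CATGTG, which lies within the M-box core, was in 6 of the 7 genes, against 14.2% of promoters, and CACGTG was in none, against 7.15%. Mitf, which has 3 windows, held neither E-box. Its most downstream window, the melanocyte-type promoter, held TGACGTCA, the cyclic AMP response element, at 153 bases before the start, a motif in 1.79% of promoters. A match is a description of letters and shows no binding. Stretches of 70 bases around these motifs follow for Slc24a5 (chr2:125068084-125068153), Mc1r (chr8:123407000-123407069), where the capitals also mark a CACATG E-box, and Mitf (chr6:97991600-97991669), all on the plus strand, with the motif of Mitf in capitals.
Slc24a5: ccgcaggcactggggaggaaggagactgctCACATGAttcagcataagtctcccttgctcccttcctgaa
Mc1r: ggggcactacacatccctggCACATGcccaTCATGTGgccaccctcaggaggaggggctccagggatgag
Mitf: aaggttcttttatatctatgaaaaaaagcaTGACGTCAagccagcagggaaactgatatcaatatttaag

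Total counts per library were 20608274 to 23022149 in E138A and 19255028 to 23904976 in WT ears at 1 month, and 16803680 to 18852963 in E138A and 15661515 to 16998900 in WT ears at day 5. Levels are counts per 1e6 library counts (CPM) after TMM scaling, and differences are log2 fold changes with standard errors and Benjamini-Hochberg adjusted p-values of edgeR's quasi-likelihood test over all 17287 genes, called at an adjusted p below 0.05. The 1 month libraries differed in base composition. The library GC correlation, Spearman's rho over 11116 genes between GC content and the gene's deviation from its mean log2 CPM, ran from -0.603 to 0.612 in E138A and from -0.519 to 0.623 in WT ears at 1 month. At day 5 it ran from -0.490 to 0.0713 in E138A and from -0.303 to 0.0533 in WT ears. In 3 E138A and 3 WT libraries of 1 month, called GC-shifted below, it was above 0.3, and 1 month results are also given without them where they change. Nothing in the labels says that each library of a group is 1 animal, and the spread behind every p-value here is that between libraries. Counts per gene do not show the E138A base change itself.

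By length-corrected level (CPM per kb of exon), Tyrp1 came first and Pmel next in 2 of the 4 groups. In WT ears at day 5 it ran Tyrp1 (7.88 ± 1.33 CPM per kb, SD, n = 6), Pmel (7.74 ± 0.664), Dct (4.55 ± 0.599), Mitf (3.19 ± 0.312), Mlana (3.02 ± 0.529), Slc24a5 (1.61 ± 0.364), Tyr (0.720 ± 0.138), Mc1r (0.372 ± 0.127), Slc45a2 (0.325 ± 0.127) and Oca2 (0.268 ± 0.105). Tyrp1 exceeded Pmel in 3 of these 6 libraries, and the ranges of Mitf and Mlana, and of each neighbouring pair from Tyr down to Oca2, overlapped. In E138A ears at day 5 Mitf came first, at 2.59 ± 0.356 CPM per kb, above Pmel in 6 of 6 libraries although their ranges overlapped. At 1 month Tyrp1 led in E138A ears at 5.02 ± 1.04 CPM per kb, and Pmel led in WT ears at 3.39 ± 1.51 CPM per kb.

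At day 5 the pigment genes were lower in E138A than in WT ears. Of the 10 genes, 9 were called lower and none higher, and Mitf was not called. Across all genes tested 20.2% were called lower and 20.7% higher. The median log2 fold change of the 10 was -2.16, against -0.02 over all genes tested. In 8 of the 10 every E138A library lay below every WT library, as in 16.4% of all genes. The summed level of the 10 genes was 36.3 ± 4.51 CPM in E138A and 102 ± 10.3 CPM in WT ears (SD, n = 6 each). CPM is relative to the other RNA of a library. In whole-ear RNA, fewer melanocytes, more RNA from other cells and less of these transcripts per melanocyte cannot be told apart.

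**Figure D1:**
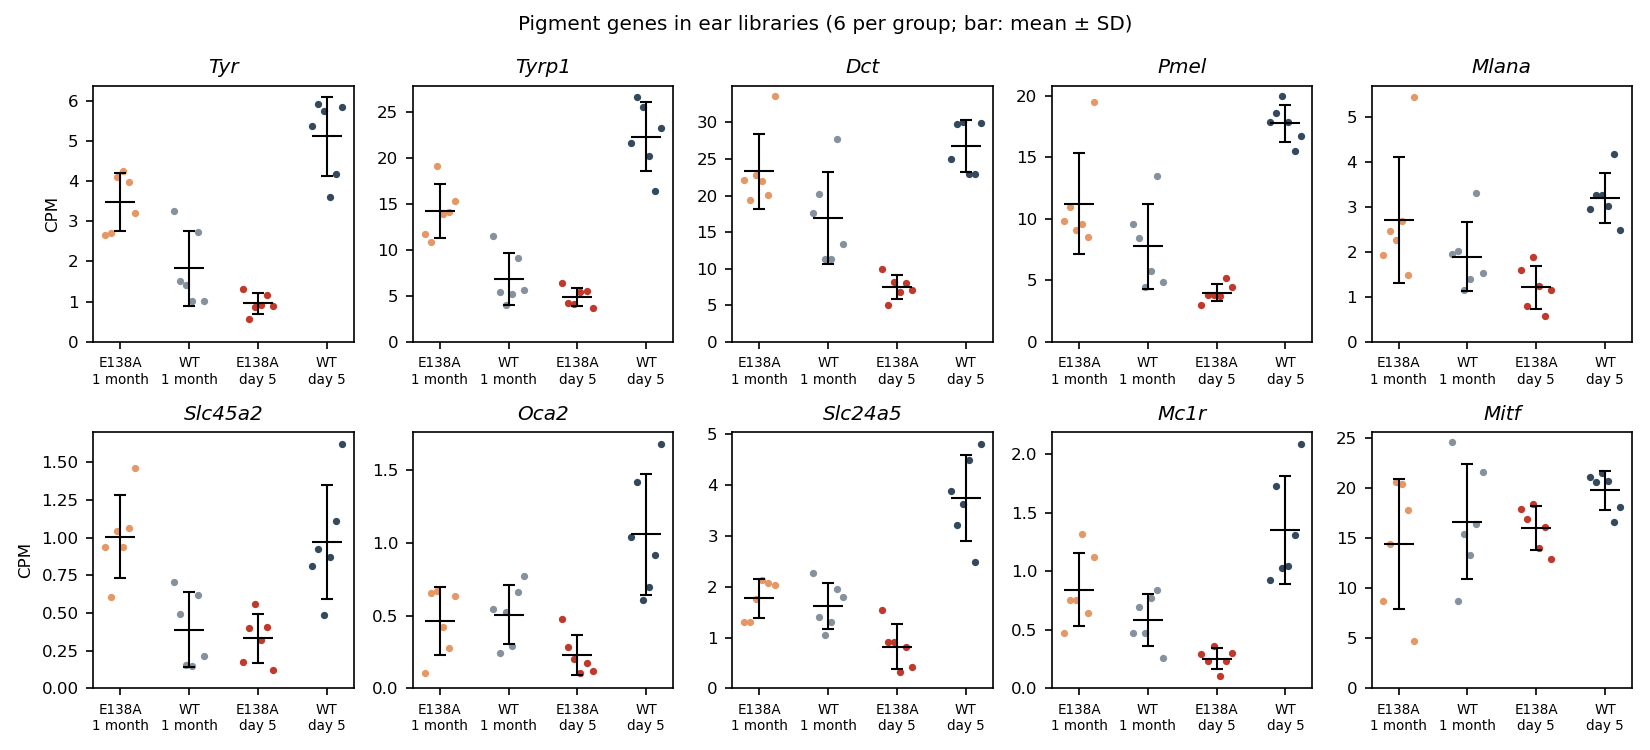
Level of each pigment gene (CPM, linear axis) in every library of the 4 groups, with 6 points per group and the mean ± SD. In Tyr the day 5 E138A libraries lie between 0.573 and 1.31 CPM, below the day 5 WT libraries at 3.61 to 5.92 CPM, while in Mitf the groups overlap.

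All 3 enzyme genes were lower at day 5. Tyr, for the enzyme that begins melanin synthesis, had 0.573, 0.910 and 1.31 CPM (lowest, median and highest) in E138A ears, against 3.61, 5.56 and 5.92 CPM in WT ears. No E138A library reached the lowest WT library. The log2 fold change of Tyr was -2.42 ± 0.28 (adjusted p = 3.53e-07), or 5.34-fold lower. Tyrp1, for an enzyme of eumelanin synthesis that also steadies tyrosinase, had 3.73, 4.82 and 6.35 CPM in E138A and 16.4, 22.4 and 26.7 CPM in WT ears. It was 4.55-fold lower, with a log2 fold change of -2.19 ± 0.22 (adjusted p = 6.45e-08). Dct, for dopachrome tautomerase, is expressed from the melanoblast stage on and had the smallest log2 fold change of the 3 enzymes. Its levels were 5.04, 7.57 and 9.97 CPM in E138A and 22.9, 27.4 and 30.04 CPM in WT ears. The log2 fold change was -1.83 ± 0.21 (adjusted p = 2.8e-07).

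Both genes of the melanosome matrix were lower at day 5. Pmel, for the fibril protein, had 3.03, 3.84 and 5.15 CPM in E138A and 15.5, 17.9 and 19.9 CPM in WT ears, with no overlap. Its log2 fold change was -2.15 ± 0.24 (adjusted p = 3.34e-07). Mlana, for a small membrane protein that binds PMEL during its maturation, had the smallest fold change among the called genes. It had 0.579, 1.19 and 1.89 CPM in E138A and 2.49, 3.15 and 4.18 CPM in WT ears (-1.39 ± 0.31, adjusted p = 0.000929). Exons of Pmel share 105 bases with Dgka and 34 with Cdk2 on the opposite strand in GENCODE M21. The sources used here do not say whether counting used strand, so reads from these shared bases cannot be assigned to 1 gene.

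Of the transporter genes and the receptor, Slc45a2, Oca2 and Mc1r were low in every group, so their values rest on few counts. Slc24a5 was low in E138A ears at day 5, with 87 counts in all, against 377 in WT ears. Slc24a5, for a potassium-dependent sodium-calcium exchanger needed for dark pigment, had 0.324, 0.864 and 1.54 CPM in E138A and 2.48, 3.75 and 4.81 CPM in WT ears. Its log2 fold change was -2.18 ± 0.28 (adjusted p = 1.93e-06), and 921 of its exon bases are shared with Myef2 on the opposite strand. Oca2, for an anion channel that raises melanosome pH, had 24 counts over the 6 E138A libraries and 106 over the 6 WT libraries. Its log2 fold change was -2.19 ± 0.42 (adjusted p = 0.000189). Slc45a2, for another melanosome membrane transporter, was the 1 called gene whose groups overlapped. It ranged from 0.120 to 0.563 CPM in E138A and from 0.484 to 1.62 CPM in WT ears (-1.52 ± 0.39, adjusted p = 0.00329). Mc1r had 27 counts in all in E138A and 135 in WT ears, without overlap, and a log2 fold change of -2.38 ± 0.34 (adjusted p = 5.36e-06). Of its exon bases 653 are shared with the unclassified opposite-strand transcript Gm38092.

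Mitf, the regulator, overlapped between genotypes. It had 12.9, 16.6 and 18.4 CPM in E138A and 16.7, 20.6 and 21.5 CPM in WT ears at day 5. The log2 fold change was -0.30 ± 0.26 (adjusted p = 0.385). With only the day 5 libraries in the fit it was called lower, by a similar amount (-0.29, adjusted p = 0.0226), as it was with voom weights (-0.38, adjusted p = 0.00661), without the GC-shifted libraries (-0.30, adjusted p = 0.0324) and with the library GC correlation as a covariate (GC covariate; -0.41, adjusted p = 0.0124). The count of Mitf takes in every promoter of the gene, including those used outside melanocytes, and the files give no count per promoter.

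The ratio of each gene to Dct in the same library was compared because unequal falls would change it, using exact two-sided permutation tests over all splits of 6 against 6 libraries, adjusted over 18 ratios. At day 5 the log2 ratio of Mitf to Dct was 1.10 ± 0.33 in E138A and -0.43 ± 0.21 in WT ears (SD, n = 6 each). All 6 E138A libraries were above all 6 WT libraries, and the difference was 1.53 (exact p = 0.00216, the smallest the design allows, adjusted p = 0.0194). This ratio uses the same counts as the fold changes of Dct and Mitf above, so it is not a separate result. Because Mitf is also counted from promoters used outside melanocytes, it does not measure unequal falls within melanocytes. Tyr had fallen further than Dct. Its log2 ratio to Dct was -2.86 ± 0.14 in E138A and -2.38 ± 0.15 in WT ears, a difference of -0.48 without overlap (exact p = 0.00216, adjusted p = 0.0194). Of the 18 ratios 3 passed, and the third was Slc45a2 at 1 month, where the log2 ratio was -4.41 ± 0.22 in E138A and -5.20 ± 0.40 in WT ears (0.79, exact p = 0.00433, adjusted p = 0.026). Without the GC-shifted libraries the difference of that last ratio was 0.83 (exact permutation, adjusted p = 0.3). Too few libraries remain there for any split to give a p below 0.05, so this setting cannot decide whether the ratio differed. With single libraries left out, which also leaves fewer splits, the Slc45a2 ratio did not pass without E138A replicate 1, 3, 4, 5 or 6 or WT replicate 3, 4 or 6 (exact permutation, adjusted p of 0.052 to 0.0648).

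**Figure D2:**
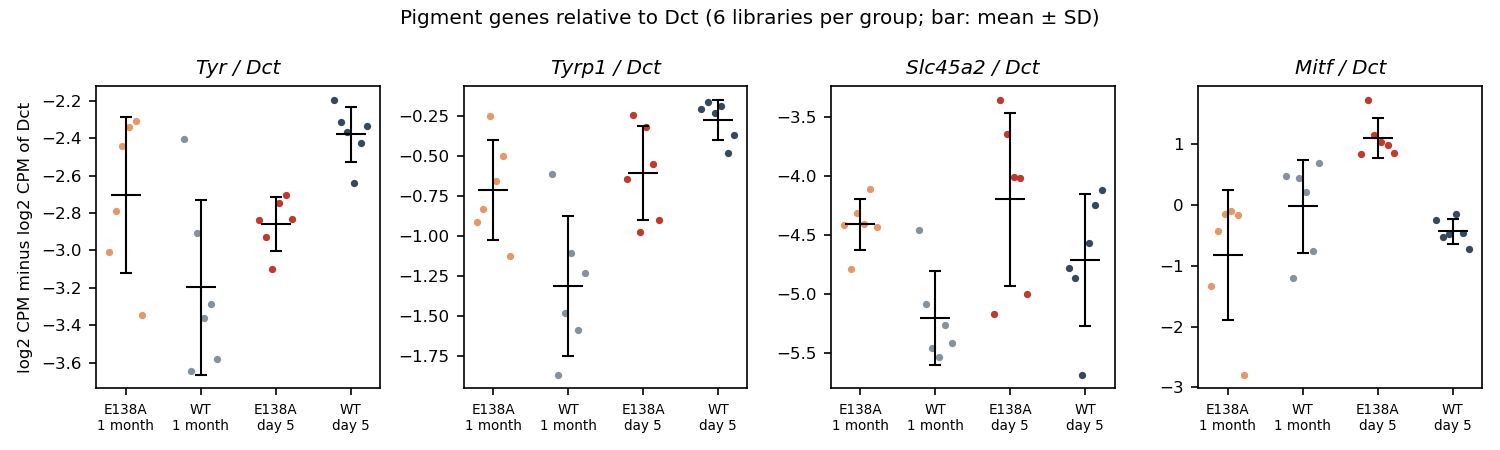
Log2 CPM of Tyr, Tyrp1, Slc45a2 and Mitf minus log2 CPM of Dct in each library, with 6 points per group and the mean ± SD. At day 5 all 6 E138A libraries lie below all 6 WT libraries for Tyr and above them for Mitf.

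At 1 month the direction had turned for part of the set. Of the 10 genes, 3 were called higher in E138A than in WT ears (Tyr, Tyrp1 and Slc45a2), none was called lower and 7 were not called. Over all genes tested 25.5% were called higher and 21.5% lower, so this share is close to the background. The median log2 fold change was 0.52, against 0.05 over all genes. In none of the 10 genes were the groups apart, while 12.2% of all genes had every E138A library above every WT library. The summed level was 73.5 ± 10.6 CPM in E138A and 55.0 ± 15.9 CPM in WT ears.

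Tyr had 2.65, 3.59 and 4.25 CPM in E138A and 1.02, 1.47 and 3.25 CPM in WT ears at 1 month. WT replicates 1 and 5, at 3.25 and 2.74 CPM, reached into the E138A range and the other 4 stayed below it. The log2 fold change was 0.92 ± 0.26 (adjusted p = 0.00444). Tyrp1 had 10.9, 14.02 and 19.2 CPM in E138A and 4.00, 5.55 and 11.5 CPM in WT ears, with WT replicate 1 alone in the E138A range (1.05 ± 0.21, adjusted p = 0.000247). Slc45a2, with 130 counts in all in E138A and 55 in WT ears, had 0.604, 0.992 and 1.46 CPM in E138A and 0.145, 0.353 and 0.704 CPM in WT ears. Its log2 fold change was the largest of the 10, 1.33 ± 0.37 (adjusted p = 0.00424). With voom weights these changes were larger, 1.64 for Tyr and 2.19 for Slc45a2.

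Among the genes not called at 1 month, Dct had 19.4, 22.01 and 33.6 CPM in E138A and 11.3, 15.5 and 27.7 CPM in WT ears (0.46 ± 0.20, adjusted p = 0.0586). Pmel had 8.54, 9.68 and 19.5 CPM in E138A and 4.47, 7.09 and 13.5 CPM in WT ears (0.53 ± 0.23, adjusted p = 0.0634). Their highest E138A value came from replicate 6, a GC-shifted library. Without that library the log2 fold changes were 0.28 for Dct (adjusted p = 0.257) and 0.26 for Pmel (adjusted p = 0.338). The call also turned on a WT library: without WT replicate 5, which had the highest WT values of both, 6 genes were called higher, with Dct at 0.66 (adjusted p = 0.00446), Pmel at 0.76 (adjusted p = 0.00552) and Mlana at 0.74 (adjusted p = 0.0436). Dct was also called without E138A replicate 2 or WT replicate 2 (adjusted p = 0.049 and 0.0471), and Pmel without E138A replicate 5 (adjusted p = 0.0457). Both genes were called with voom weights (0.75, adjusted p = 0.00033, for Dct and 0.67, adjusted p = 0.000926, for Pmel) and with a GC covariate (0.49, adjusted p = 0.0318, and 0.57, adjusted p = 0.0258), and Pmel also with an offset for GC content and length (0.52, adjusted p = 0.0394). Without the 6 GC-shifted libraries 5 were called higher, with Dct at 0.60 (adjusted p = 0.0153) and Mc1r at 1.17 (adjusted p = 0.0236).

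The other 5 genes had log2 fold changes between -0.20 and 0.53 at 1 month, with adjusted p-values of 0.156 to 0.807. Mlana averaged 2.71 ± 1.41 CPM in E138A and 1.90 ± 0.768 CPM in WT ears. Mc1r averaged 0.843 ± 0.315 CPM in E138A and 0.585 ± 0.223 CPM in WT ears. The 2 transporter genes Oca2 and Slc24a5 were close to WT in level, with 0.460 ± 0.234 and 1.77 ± 0.382 CPM in E138A ears, against 0.507 ± 0.205 and 1.63 ± 0.453 CPM in WT ears. The interval around these differences is wide, with standard errors of 0.38 for Oca2 and 0.27 for Slc24a5. Mitf averaged 14.5 ± 6.49 CPM in E138A and 16.7 ± 5.72 CPM in WT ears.

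Mitf varied more among 1 month libraries than between genotypes. It ran from 4.77 to 20.6 CPM in E138A and from 8.70 to 24.6 CPM in WT ears. Over the 12 libraries its log2 CPM had a Pearson r of -0.89 with the library GC correlation, given as a description. Both were first centred on the mean of each group. For the other 9 genes that r lay between -0.56 and 0.37. With the library GC correlation as a covariate, Mitf was called lower in E138A ears at 1 month (-0.45, adjusted p = 0.00614) and at day 5 (-0.41, adjusted p = 0.0124).

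**Figure D3:**
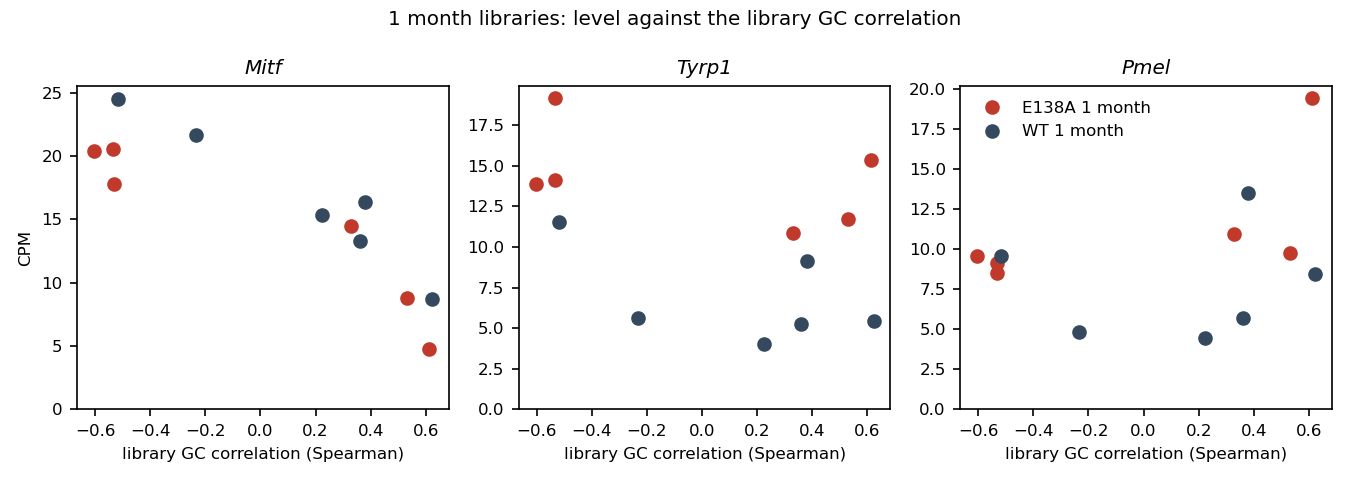
Level (CPM) of Mitf, Tyrp1 and Pmel in the 12 libraries of 1 month against the library GC correlation (Spearman's rho, no unit), coloured by genotype. Mitf falls along the axis in both genotypes, from 24.6 CPM down to 4.77 CPM, and the highest Pmel value, 19.5 CPM, belongs to the E138A library at 0.612.

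The E138A effect itself differed between the 2 times for 9 of the 10 genes, tested as an interaction (effect at 1 month minus effect at day 5). The interaction was called above 0 in 9 genes and below 0 in none, against 4.68% and 4.09% of all genes tested, and the median was 2.49 against 0.02. Tyr differed most, by 3.34 ± 0.38 (adjusted p = 3.81e-06), and Tyrp1 by 3.24 ± 0.31 (adjusted p = 3.03e-07). The smallest called difference was 1.90 ± 0.43, for Mlana (adjusted p = 0.00588). Mitf had 0.10 ± 0.37 (adjusted p = 0.955). The same 9 genes were therefore lower at day 5 and shifted upward relative to WT by 1 month, while Mitf was called in neither test. The 3 comparisons share libraries and are not independent of each other.

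**Figure D4:**
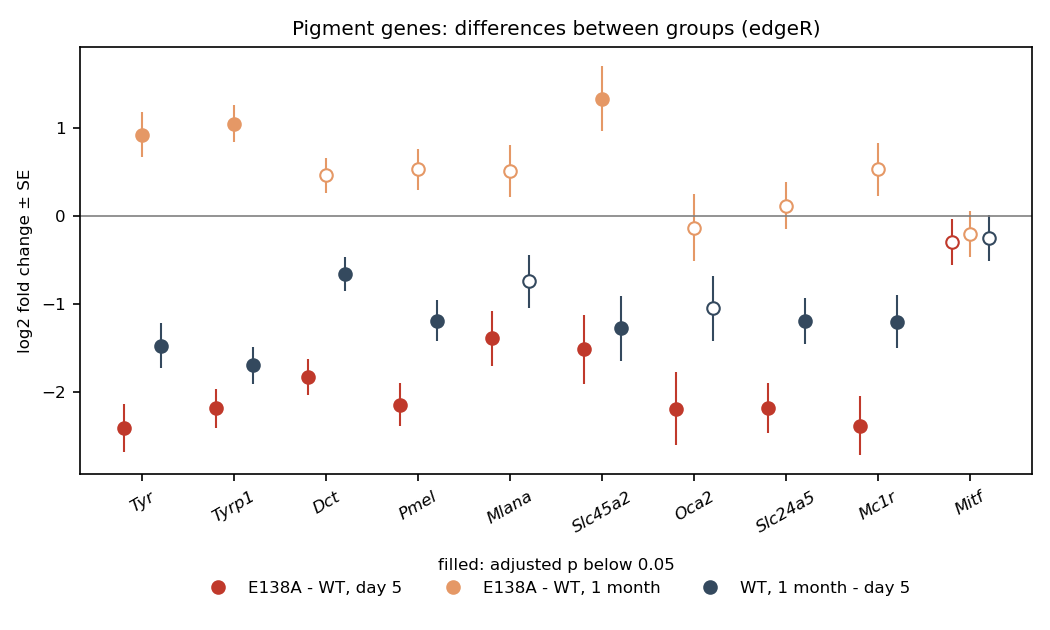
Log2 fold change ± SE of each pigment gene for E138A minus WT at day 5, E138A minus WT at 1 month and 1 month minus day 5 in WT ears; filled points have an edgeR adjusted p below 0.05. The day 5 values lie between -2.42 and -1.39 for every gene but Mitf (-0.30), and the 1 month values lie between -0.20 and 1.33.

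Between the 2 times the genotypes ran in opposite directions, with levels higher at 1 month than at day 5 in E138A ears and lower in WT ears. In E138A ears 8 of the 10 genes were called higher at 1 month, against 11.2% of all genes, and 6 did not overlap between times, against 5.05%. Dct averaged 23.3 ± 5.19 CPM at 1 month and 7.52 ± 1.66 CPM at day 5 in E138A ears (1.63 ± 0.20, adjusted p = 2.53e-06). Tyr averaged 3.48 ± 0.716 CPM at 1 month and 0.954 ± 0.253 CPM at day 5 (1.87 ± 0.27, adjusted p = 2.12e-05). The receptor gene Mc1r rose by a similar amount (1.71 ± 0.34, adjusted p = 0.000677). The uncalled genes were Oca2 (1.01 ± 0.44, adjusted p = 0.112) and Mitf (-0.15 ± 0.26, adjusted p = 0.729). Oca2 was called without E138A replicate 1 at 1 month (adjusted p = 0.0417) or at day 5 (adjusted p = 0.0447) and with voom weights (1.19, adjusted p = 0.0358).

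In WT ears 7 of the 10 genes were called lower at 1 month than at day 5, against 2.81% of all genes, and 5 did not overlap, against 2.16%. Tyrp1 averaged 6.84 ± 2.88 CPM at 1 month and 22.3 ± 3.76 CPM at day 5 in WT ears (-1.70 ± 0.22, adjusted p = 2.09e-05). Pmel averaged 7.76 ± 3.47 CPM at 1 month and 17.8 ± 1.52 CPM at day 5 (-1.19 ± 0.23, adjusted p = 0.00246). Tyr followed with -1.47 ± 0.26 (adjusted p = 0.000918), but with an offset for GC content and length it was not called (-0.70, adjusted p = 0.291). Dct had the smallest called change (-0.66 ± 0.20, adjusted p = 0.0363), and that call was lost under the same offset (-0.40, adjusted p = 0.304). It was also lost without any 1 of 11 libraries (adjusted p of 0.0539 to 0.0955). At 1 month these were E138A replicates 3 and 4 and WT replicates 3, 4 and 6. At day 5 they were E138A replicates 3 and 4 and WT replicates 1, 2, 3 and 6. The Dct call was lost too with no filter on counts (adjusted p = 0.0745) and with only the WT libraries fitted (adjusted p = 0.0575). The same held with a block for replicate number (adjusted p = 0.0581) and with RLE in place of TMM scaling (adjusted p = 0.0509). Slc45a2 (-1.28 ± 0.37, adjusted p = 0.0325) and Slc24a5 (-1.20 ± 0.26, adjusted p = 0.00608) were not called with the GC-shifted libraries left out, a fit with fewer libraries in which their log2 fold changes were of similar size (-1.34, adjusted p = 0.0897, and -1.10, adjusted p = 0.0583). The Slc45a2 call was lost as well without WT replicate 3, 4 or 6 at 1 month or WT replicate 2, 4, 5 or 6 at day 5 (adjusted p of 0.0529 to 0.101). So it was with no filter (adjusted p = 0.0621), only the WT libraries fitted (adjusted p = 0.0531) or the replicate block (adjusted p = 0.0675). Oca2 (-1.05 ± 0.37, adjusted p = 0.0732) was called lower without E138A replicate 1 at 1 month (adjusted p = 0.044) and with only the WT libraries fitted (adjusted p = 0.0475). It was also called with voom weights (-1.30, adjusted p = 0.00309) and the GC and length offset (adjusted p = 0.0452). Mlana (-0.75 ± 0.30, adjusted p = 0.117) was called lower with voom weights (-1.04, adjusted p = 0.000465), that offset (adjusted p = 0.0298) and a GC covariate (adjusted p = 0.0475). All WT mice also received tamoxifen, so time after injection and age cannot be told apart here.

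The 10 genes moved together across libraries except Mitf. The Pearson r of each gene's log2 CPM with the mean of the other members, over 24 libraries, was 0.721 to 0.941 for 9 genes and 0.109 for Mitf. After each group was centred on its mean it was 0.401 to 0.736 for the 9 and 0.004 for Mitf. These values are descriptions, since the libraries share composition as well as pigment content. Of all other tested genes the 10 most like the pigment genes after centring were Tnmd (r = 0.826), Fzd7 (0.797), Rflnb (0.797), Tspan18 (0.778), Gpc3 (0.765), Pdzrn3 (0.755), Sema6a (0.734), Kcp (0.733), Enox1 (0.731) and Clmp (0.729). Tnmd, for the tendon protein tenomodulin, was likewise lower in E138A ears at day 5 (-1.62 ± 0.21, adjusted p = 2.49e-06). At 1 month it had a log2 fold change of -0.10 ± 0.21 (adjusted p = 0.719). Without centring, r was 0.871 for Tnmd but 0.536 for Tspan18 and 0.370 for Clmp. Tspan18 (-1.19, adjusted p = 1.89e-06) and Clmp (-0.76, adjusted p = 0.000275) were lower in E138A ears at 1 month. Gpc3 (1.07, adjusted p = 7.68e-05), Pdzrn3 (0.57, adjusted p = 0.0218) and Kcp (0.90, adjusted p = 0.000527) were higher there.

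Counts in the wider pigment lists stand against 20.2% of all genes called lower and 20.7% called higher at day 5, and 21.5% lower and 25.5% higher at 1 month. Of 22 tested genes for building and moving melanosomes, many of which other cells also use, 3 were lower and 5 higher in E138A ears at day 5. At 1 month 1 was lower and 5 were higher. These shares were near or below those of all genes. Their median log2 fold change was -0.02 at day 5 and 0.24 at 1 month. Rab32 and Rab38, small GTPases that bring enzymes to melanosomes, were higher at both times (Rab32 by 0.54 ± 0.08 at day 5 and 0.65 ± 0.08 at 1 month, Rab38 by 0.59 ± 0.11 and 1.00 ± 0.11, adjusted p at most 0.00016). Rab27a, which tethers melanosomes to the actin motor, was lower at both times (-0.50 ± 0.10 at day 5, adjusted p = 0.000352, and -0.71 ± 0.10 at 1 month, adjusted p = 3.6e-06). Sytl2, for a Rab27 partner, followed the pigment genes at day 5 (-0.84 ± 0.21, adjusted p = 0.00265) and in the interaction (1.32 ± 0.30, adjusted p = 0.00536). Bace2, for a protease that cleaves PMEL, was higher at both times (0.65 ± 0.18 at day 5, adjusted p = 0.00638, and 1.03 ± 0.18 at 1 month, adjusted p = 5.47e-05).

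Of 10 genes for melanosome ions and transport, 4 were lower and 3 higher at day 5, and 1 was lower and 4 higher at 1 month, against 20.2% lower and 20.7% higher over all genes at day 5 and 21.5% and 25.5% at 1 month. Trpm1, for a melanocyte cation channel whose gene hosts miR-211, ran in the same directions as the pigment enzymes. It averaged 2.26 ± 0.297 CPM in E138A and 4.88 ± 0.452 CPM in WT ears at day 5 (SD, n = 6 each). The log2 fold change was -1.11 ± 0.17 (adjusted p = 1.27e-05). At 1 month it averaged 4.26 ± 0.995 CPM in E138A and 2.72 ± 0.557 CPM in WT ears (0.64 ± 0.16, adjusted p = 0.00205), and the interaction was 1.75 ± 0.23 (adjusted p = 2.93e-05). Mcoln3, for an endosomal channel, was lower at day 5 (-1.39 ± 0.31, adjusted p = 0.000946). Slc7a11, for the cystine-glutamate exchanger that feeds pheomelanin synthesis and is also a stress gene of many cells, rose steeply instead. It averaged 80.5 ± 46.0 CPM in E138A and 1.99 ± 0.957 CPM in WT ears at 1 month, and 88.98 ± 40.003 CPM in E138A and 3.19 ± 0.506 CPM in WT ears at day 5. Its log2 fold changes were 5.33 ± 0.46 (adjusted p = 4.98e-09) and 4.80 ± 0.45 (adjusted p = 2.52e-08).

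Regulators of the melanocyte lineage included genes called in each direction. Of 12 tested, 5 were lower and 3 higher at day 5 (20.2% and 20.7% over all genes), and 2 were lower and 5 higher at 1 month (21.5% and 25.5% over all genes). Kit, the receptor for stem cell factor on melanocytes and mast cells, was lower in E138A ears at day 5 (-0.60 ± 0.14, adjusted p = 0.00147) and higher at 1 month (0.61 ± 0.14, adjusted p = 0.00084). Its interaction was 1.21 ± 0.20 (adjusted p = 0.000266). Sox10, which drives Mitf in melanocytes and is also a Schwann cell factor, was lower at both times (-0.73 ± 0.20, adjusted p = 0.00482, at day 5, and -0.60 ± 0.20, adjusted p = 0.0153, at 1 month), the second not called when only the 1 month libraries were fitted (adjusted p = 0.0815) or without WT replicate 2 or 5 (adjusted p = 0.0508 and 0.0518). Sox5 was lower at both times (-1.22 ± 0.26 at day 5, adjusted p = 0.000512, and -1.55 ± 0.26 at 1 month, adjusted p = 2.6e-05). Ednrb, the endothelin receptor of melanoblasts and endothelial cells, was higher at both (0.83 ± 0.26, adjusted p = 0.0129, and 2.23 ± 0.27, adjusted p = 3.58e-07). Of the 3 relatives of Mitf, 2 were higher and none lower at day 5, and 2 were higher and 1 lower at 1 month. Tfec, known from macrophages, rose at day 5 (3.81 ± 0.39, adjusted p = 7.93e-08) and at 1 month (2.01 ± 0.37, adjusted p = 7.92e-05). Of the other two, Tfe3 was higher at 1 month (0.62 ± 0.13, adjusted p = 0.000245) and Tfeb lower (-0.53 ± 0.20, adjusted p = 0.0321). Tfeb was not called without E138A replicate 3, 4 or 5 or WT replicate 3 or 5 at 1 month (adjusted p of 0.0629 to 0.125). Nor was it with only the 1 month libraries fitted (adjusted p = 0.11) or with a block for replicate number (adjusted p = 0.0583). The day 5 call of Tfe3 (0.35, adjusted p = 0.0299) was lost without E138A replicate 2, 4 or 6 or WT replicate 2, 3, 4 or 6 at day 5 (adjusted p of 0.0521 to 0.102). It was lost too with no filter (adjusted p = 0.0587) and with the replicate block (adjusted p = 0.0582).

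Of 17 genes for signals that act on melanocytes 13 were tested. At day 5, 5 were lower and 1 higher, against 20.2% and 20.7% of all genes, and at 1 month 6 were lower and 2 higher, against 21.5% and 25.5%. Edn3, for the endothelin that supports melanoblasts, averaged 0.793 ± 0.225 CPM in E138A and 4.84 ± 0.729 CPM in WT ears at day 5 (-2.60 ± 0.24, adjusted p = 1.98e-08). It was lower at 1 month too (-1.13 ± 0.22, adjusted p = 0.000202), by less than at day 5 (interaction 1.48 ± 0.32, adjusted p = 0.0047). Asip, for agouti, the antagonist of MC1R, moved the other way. It averaged 2.36 ± 0.598 CPM in E138A and 0.642 ± 0.128 CPM in WT ears at day 5 (1.87 ± 0.26, adjusted p = 5.27e-06). The rise at 1 month (0.79 ± 0.25, adjusted p = 0.0125) was not called without the GC-shifted libraries (0.19, adjusted p = 0.665), with voom weights (0.16, adjusted p = 0.593) or without E138A replicate 6 alone (0.57, adjusted p = 0.0612). C57BL/6 mice carry the nonagouti allele of this gene.

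Corin, for a protease that limits agouti action in the dermal papilla, was lower at both times (-0.97 ± 0.29 at day 5, adjusted p = 0.00998, and -2.35 ± 0.30 at 1 month, adjusted p = 1.08e-06). Wnt3a, for a Wnt ligand, was lower at day 5 (-1.15 ± 0.22, adjusted p = 0.000253). Edn1, for the endothelin made by keratinocytes and endothelium, was higher at 1 month (1.43 ± 0.22, adjusted p = 7.64e-06). Mrap, for an accessory protein of melanocortin receptors known from adrenal and fat cells, was lower at 1 month (-2.17 ± 0.28, adjusted p = 1.14e-06). It was called lower at day 5 too (-0.84 ± 0.29, adjusted p = 0.0206). The day 5 call was lost without E138A replicate 5 (adjusted p = 0.0548) or WT replicate 3 (adjusted p = 0.0773) of day 5. Kitl, for stem cell factor, was not called at day 5 (-0.72 ± 0.45, adjusted p = 0.212), although no E138A library reached the WT range. It was called lower in 6 other settings, among them only the day 5 libraries (-0.70, adjusted p = 6.02e-05), without the GC-shifted libraries (-0.72, adjusted p = 0.000167), voom weights (-0.77, adjusted p = 0.00081) and the GC and length offset (-0.74, adjusted p = 0.0127). With a GC covariate it was at -0.92 (adjusted p = 0.00149), and with the replicate block too at -0.90 (adjusted p = 0.00363). At 1 month Kitl was not called with all libraries (-0.13 ± 0.45, adjusted p = 0.838), higher with voom weights (0.76, adjusted p = 0.0176) and lower with the GC covariate, alone (-0.71, adjusted p = 0.0126) or with the replicate block (-0.67, adjusted p = 0.026). Pomc, the gene of the melanocyte-stimulating hormone precursor, was too low to test, with 17 counts in E138A and 20 in WT ears at 1 month and 12 in E138A and 5 in WT ears at day 5.

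Markers of other cell types moved between the same groups, and their part in the pigment result was not tested. The counts of markers called stand against 20.2% of all genes lower and 20.7% higher at day 5, and 21.5% lower and 25.5% higher at 1 month. The summed level of 5 dermal fibroblast markers was 10542 CPM in E138A (6112 to 20356) and 5527 CPM in WT ears (4435 to 7288) at 1 month, and 3428 CPM in E138A (2267 to 4780) and 9865 CPM in WT ears (8032 to 10998) at day 5. The summed level ran in the direction of the pigment genes at both times, with 3 of 5 markers lower and 1 higher at day 5, and 4 higher and 1 lower at 1 month. Over time it ran with them too. In E138A ears 3 of 5 markers were higher at 1 month than at day 5 and 1 lower, with 11.2% of all genes higher. In WT ears 2 of 5 were lower and none higher, against 2.81% and 6.28%. The interaction was called above 0 in 3 of 5 and below 0 in none, against 4.68% and 4.09%. The 10 Schwann cell markers summed to 369 CPM in E138A (295 to 473) and 848 CPM in WT ears (655 to 1151) at 1 month, and to 448 CPM in E138A (362 to 577) and 764 CPM in WT ears (698 to 842) at day 5. They thus ran with the pigment genes at day 5 (7 of 10 lower, none higher) but not at 1 month (8 of 10 lower, none higher). The list shares Sox10 with the lineage regulators.

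The 12 hair matrix and shaft markers, whose follicles hold pigment-donating melanocytes when growing, summed to 205 CPM in E138A (96.9 to 405) and 56.9 CPM in WT ears (43.4 to 73.1) at 1 month, with 10 of 12 higher and 1 lower, against 25.5% and 21.5% of all genes. At day 5 they summed to 32.9 CPM in E138A (26.0 to 40.3) and 55.2 CPM in WT ears (45.0 to 62.3), with 2 of 12 lower, and Krt34 was at 0 in every E138A library. In WT ears this list was not lower at 1 month than at day 5 (8 of 12 markers higher, against 6.28% of all genes). That was unlike the pigment genes and the summed fibroblast markers. The 9 mast cell markers, which include Kit, summed to 371 CPM in E138A (284 to 706) and 175 CPM in WT ears (117 to 325) at 1 month, with 7 of 9 higher. At day 5 they summed to 206 CPM in E138A (114 to 250) and 191 CPM in WT ears (166 to 214), with 3 of 9 higher and 1 lower. The 7 macrophage markers summed to 1213 CPM in E138A (936 to 1922) and 595 CPM in WT ears (390 to 981) at 1 month, with 7 of 7 higher. At day 5 they summed to 1030 CPM in E138A (620 to 1432) and 512 CPM in WT ears (449 to 559), with 6 of 7 higher. The 6 basal keratinocyte markers summed to 18912 CPM in E138A (13775 to 23194) and 13950 CPM in WT ears (11211 to 17309) at 1 month, with 3 higher and 2 lower. At day 5 they summed to 15679 CPM in E138A (13693 to 18123) and 13672 CPM in WT ears (12196 to 16938), with 2 higher and 2 lower.

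**Figure D5:**
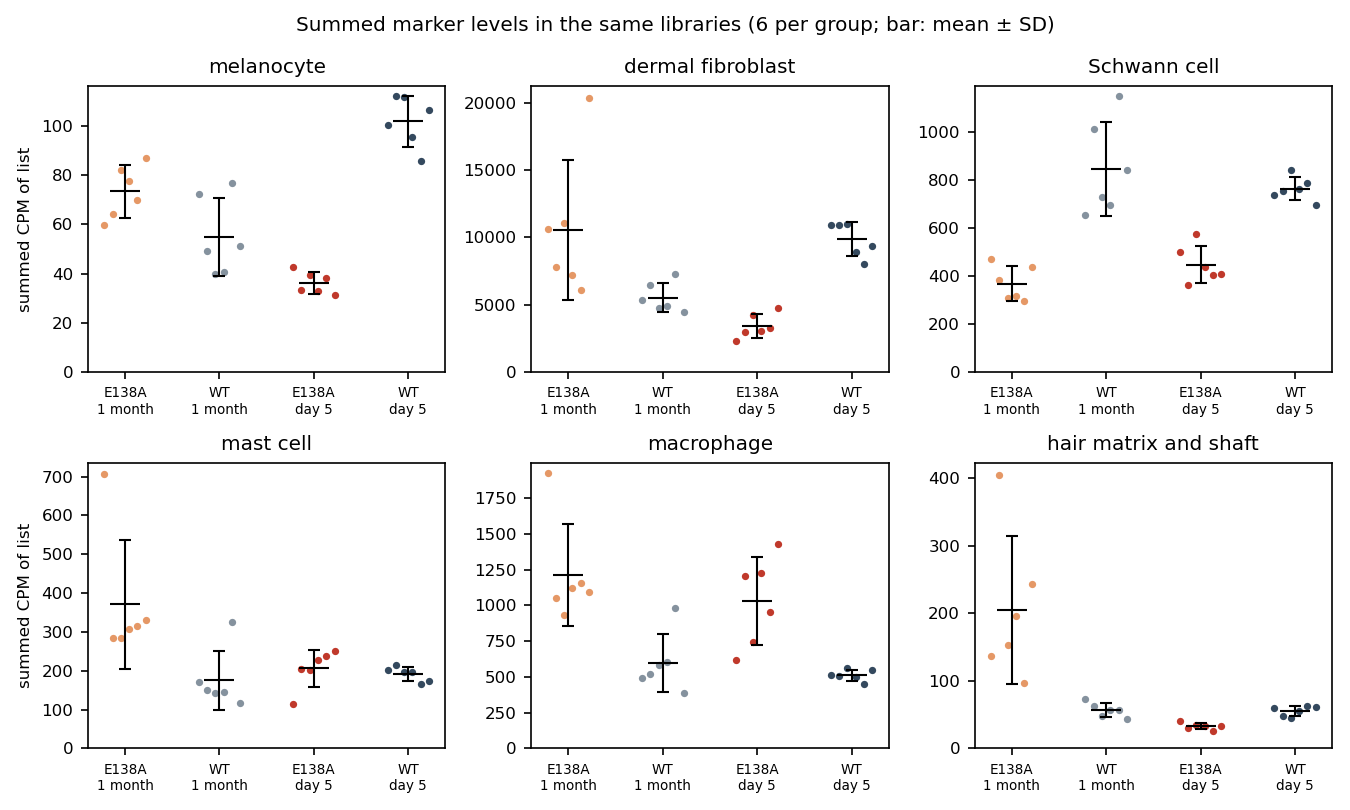
Summed CPM of the 10 pigment genes (melanocyte) and of 5 marker lists of other cell types in every library, with 6 points per group and the mean ± SD. Dermal fibroblast markers at day 5 (3428 CPM in E138A and 9865 CPM in WT ears on average) lie on the same side as the pigment genes, while Schwann cell markers are lower in E138A ears at both times.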

How the data were processed

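Whole-ear polyA RNA of 24 samples was sequenced single-end on a HiSeq4000, per the labels' protocols. RSEM expected counts, 1 row per Ensembl gene and unscaled, are what the authors deposited, per the file headers. RSEM 1.3.0, STAR 2.5.2, DESeq2 1.14.1 and build GRCm38 are named in the submitters' processing notes. The annotation release and strand setting are not given in the sources used here. Values were rounded, since 6.71% of them had decimals. RSEM shares reads between similar genes by estimate, which adds uncertainty to overlapping genes. Symbols came from GENCODE M21, which lacked 193 identifiers. Asip is listed there as a.

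Tests were made with edgeR 4.0.16 in R 4.3.3 (filterByExpr by group, TMM, robust quasi-likelihood fit with 1 coefficient per group over all 24 libraries, Benjamini-Hochberg over 17287 genes). A standard error is the log2 fold change divided by the square root of F. Log2 CPM used a prior count of 2. On simulated data for the day 5 comparison, 17287 genes with 17047 tested, edgeR recovered 21 of 67 genes seeded with a 1.5-fold change, 42 of 67 with a 2-fold change and 58 of 66 with a 4-fold change, and made 7 false calls. Named were all 10 pigment genes, up to 4 members of each wider list with the smallest adjusted p at day 5 and at 1 month, always Sox10, Kit, Kitl, Asip and Pomc, and the 10 genes most like the pigment genes. Not every gene that rule allows is described. The genes and lists were chosen with earlier results of these data known. Within groups no library was a repeat of another: over 60 pairs, chi-square per degree of freedom was at least 4.86. Pairs between groups were not examined. Alternatives were DESeq2 1.42.0, limma 3.58.1 voom with quality weights, other scaling and filters, a replicate block and leaving out each library. Those on GC content were added after seeing the data.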

Additional observations from a re-analysis of the deposited data

Results flagged for a closer look

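In E138A ears at 1 month, replicate 6 stood apart from the other 5 libraries of its group in 3 pigment genes, by a gap above Dixon's 95% critical value for 6 samples. It had 33.6 CPM of Dct, 19.5 CPM of Pmel and 5.45 CPM of Mlana. These are 3 of 40 gene and group combinations examined, and chance alone marks about 1 in 20. The same library is GC-shifted and had the lowest Mitf level of all 24 libraries, 4.77 CPM.

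The E138A effect differed between 1 month and day 5 in 9 of the 10 pigment genes by edgeR's interaction test. The differences in log2 fold change (1 month minus day 5) were 3.34 for Tyr, 3.24 for Tyrp1, 2.29 for Dct, 2.68 for Pmel, 1.90 for Mlana, 2.85 for Slc45a2, 2.06 for Oca2, 2.30 for Slc24a5 and 2.91 for Mc1r. The adjusted p-values ran from 3.03e-07 for Tyrp1 to 0.0242 for Oca2.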

How the results depend on the processing

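The day 5 count of 9 lower genes and the interaction count of 9 higher genes stayed at 9 when each library was left out. Across the other settings both ran from 7, with a filter at 1 CPM in 6 libraries that drops Slc45a2 and Oca2, to 10, where Mitf was called too. At 1 month the count of 3 higher became 5 with voom, 5 without the GC-shifted libraries, and 5 with 1 lower (Mitf) under the GC covariate, alone or with the replicate block. It was 4 with the GC and length offset and 2 with the filter at 1 CPM. Left-out libraries gave 3 to 6, the 6 without WT replicate 5. The count of 8 higher in E138A ears over time ran from 8 to 9 with libraries left out, and that of 7 lower in WT ears from 5 to 8. Of the 18 ratios to Dct 3 passed with all libraries, 2 to 4 with libraries left out and 0 in pairs by replicate number. The paired test, an exact sign flip, has few patterns. Its smallest p is too large for a few ratios to pass after adjustment over 18, so that 0 cannot decide. The replicate numbers did not pair the libraries (correlations of -0.158 to 0.0514 at day 5 and -0.733 to 0.258 at 1 month). With the replicate block the counts were 9 lower at day 5, 3 higher at 1 month, 9 in the interaction, 8 in E138A and 5 in WT ears over time. Values not called with all libraries changed sign as follows, and the cause was not tested. At 1 month Oca2 was 0.077 with voom and -0.29 to 0.064 with libraries left out, Mitf 0.32 with voom, and Kitl 0.76 with voom (called), 0.082 without GC-shifted libraries and -0.40 to 0.14 with libraries left out. Mitf over time in E138A ears was 0.28 with voom, 0.31 without GC-shifted libraries, 0.026 with the GC covariate, 0.0095 with block and covariate, and -0.26 to 0.053 with libraries left out. In WT ears it was 0.082 without GC-shifted libraries, 0.069 with the covariate and 0.074 with the block too. Its interaction was -0.044 with the covariate, -0.064 with the block too, and -0.041 to 0.25 with libraries left out. Calls in WT ears over time were the least stable of the 5 comparisons, with 30 calls lost over all settings and none in the other 4. At 24 to 135 counts per group at day 5, Oca2, Slc45a2 and Mc1r have wide errors.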
